A study of Drosophila melanogaster with 2 samples.

Results

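The genes described here encode the machinery that recognises secretory proteins while they are being made and then removes their signal peptides. They are 10 listed Drosophila melanogaster genes of 13981 protein-coding genes: 5 for proteins of the signal recognition particle (Srp14, Srp19, Srp54k, Srp68 and Srp72), 1 for the alpha subunit of its receptor (SrpRalpha) and 4 for the signal peptidase complex (Spase12, twr, Spase22-23 and Spase25). They are a list by function, and the rule that selects them uses no measured value, although the list was drawn up with earlier results of these data known. All 10 symbols matched exactly 1 gene of the annotation.

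The measurements are peaks of chromatin immunoprecipitation with sequencing (ChIP-seq) for CrebA, a transcription factor with a bZIP domain that belongs to the CREB3 group. The material was 1 group of whole wandering larvae (the third instar) of the CrebA-MiMIC-GFP strain, males and females together, in 2 biological replicates labelled 4 and 2. In this strain an artificial intronic exon gives CrebA an eGFP tag, and the deposited description says that the immunoprecipitation used an antibody against GFP. The antibody field of the same record names CrebA. No untagged or second group was analysed here, and whole larvae mix all tissues, so the lists do not say in which cells a peak arose.

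A ribosome that starts a secretory or membrane protein exposes a hydrophobic signal sequence. The signal recognition particle, an RNA with several proteins, binds that sequence, slows translation and docks at its receptor on the endoplasmic reticulum. The chain then passes through the Sec61 channel, and the signal peptidase complex cuts off the signal peptide on the far side. CrebA is known from the embryonic salivary gland as an activator of genes for this early part of the secretory pathway.

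Of the 10 genes, Spase25 had a CrebA-eGFP peak at its promoter and the other 9 had no peak in the gene or within 2000 bp of it in any of the 4 peak lists. A summit is the highest point of a peak, and it was counted at the promoter when it lay within 500 bp of an annotated transcript start. The optimal list, which holds 2238 peaks that passed the authors' comparison of replicates, placed a promoter summit at 1 of the 10 genes, against 5.14% of all protein-coding genes. The relaxed lists also hold weak peaks and background and number 29999 peaks each. In them the count was again 1 of 10, against 23.7% of protein-coding genes in the pooled list, 24.3% in replicate 4 and 26.0% in replicate 2. In the gene or within 2000 bp, 1 of 10 genes had a summit in each list. The share of protein-coding genes with one was 11.2% in the optimal list, 43.8% in the pooled list, 46.7% in replicate 4 and 47.1% in replicate 2. At least 1 of the 4 lists gave a summit there for 53.9% of protein-coding genes.

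The 10 genes are short, from 607 bp at Spase12 to 2356 bp at Srp68, and each has a single annotated start, while protein-coding genes have 1.40 on average. Both properties leave less room for a summit. Among the 7495 protein-coding genes no longer than Srp68, 48.7% had a summit in the gene or within 2000 bp in at least 1 list and 1.88% had an optimal promoter summit. The members' counts were not tested against these shares. The lowest signal still listed was 15.6 in the pooled list, 8.9 in replicate 4 and 9.8 in replicate 2, in the authors' units. A gene without a peak is therefore one with nothing listed down to those levels, and not one shown to be free of CrebA.

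Spase25 (FBgn0030306, chrX:11485250-11486566, plus strand, dm6) encodes the homologue of the signal peptidase subunit that yeast calls Spc2, which is not the catalytic one. Its promoter peak covered chrX:11485026-11485429, with the summit 22 bp upstream of the start. The peak signal was 199.5 in the pooled and optimal lists, 75.9 in replicate 4 and 105.0 in replicate 2. The authors' signals rise from the single replicates to the pool, so ranks are compared between lists. The peak ranked 280 of 29999 in the pooled list, 427 in replicate 4 and 446 in replicate 2, which placed it within the strongest 1.49% of each. The summits of the replicates lay 0 bp and 1 bp from the pooled summit. Both replicates therefore held the peak at the same position and at close ranks.

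The 150 bases that end just before the Spase25 start (chrX:11485100-11485249, plus strand, dm6) are shown because they hold this summit. Capitals mark the summit base and 10 bases to either side. The whole stretch lies between genes.
Spase25 upstream: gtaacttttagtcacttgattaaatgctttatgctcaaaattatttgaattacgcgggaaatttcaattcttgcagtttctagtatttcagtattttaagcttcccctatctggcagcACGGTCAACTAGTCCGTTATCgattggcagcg

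None of the 7 sequences searched on both strands lay within 100 bp of this summit. They were CCACGTCA, the site of the CREB3 family, its core CACGTCA, the cyclic AMP response element TGACGTCA, the shared core ACGTG, the E-box CACGTG, the GAGA factor sequence GAGAG and the DRE sequence TATCGATA. CCACGTCA contains CACGTCA, both contain ACGTG on the other strand, and CACGTG contains it on either, so their matches are not separate. The most frequent in the 2209 nuclear optimal windows of this width were GAGAG, in 39.9%, and ACGTG, in 19.5%. CCACGTCA was in 0.272%.

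**Figure D1:**
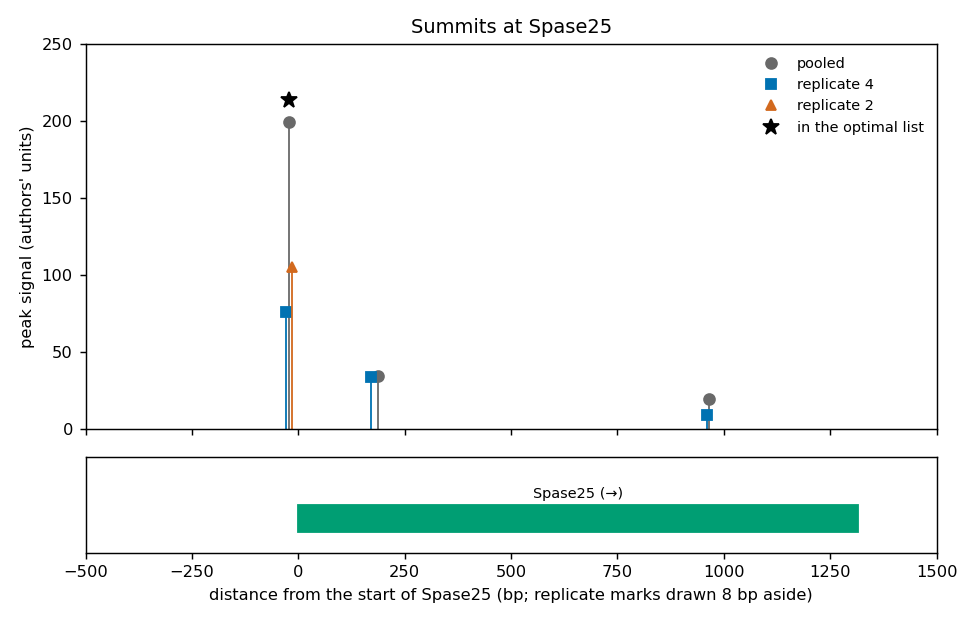
Peak signal (authors' units) of each summit from 500 bp before to 1500 bp after the Spase25 start, by distance from that start in bp, for the pooled list and both replicates, with a star for the summit also in the optimal list and the extent of Spase25 below. The tall group stands 22 bp upstream of the start and holds a mark from each replicate, while the 2 lower groups hold none from replicate 2. The plot covers the range drawn only, and not the whole 2000 bp window.

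Spase25 had 2 weaker summits inside the gene, and the replicates differed on both. An intronic summit 188 bp downstream of the start had a pooled signal of 34.1 (rank 7529) and lay 8 bp from a summit of replicate 4 with a signal of 33.5 (rank 2613). That replicate 4 summit, 180 bp downstream of the start, fell in an exon. Replicate 2 had no summit within 200 bp of the pooled one. Within 500 bp, replicate 2 had only the summit of the promoter peak, 23 bp upstream of the start. Matching at 500 bp therefore counts the intronic summit as matched. The other, 966 bp downstream in an exon, had a pooled signal of 19.5 (rank 20373) and a match in replicate 4 of 9.2 (rank 28223), and again none in replicate 2. Of the pooled summits in the promoter window and the gene body, the summit upstream of the start was thus matched in both replicates within 200 bp. The 2 inside the gene were not. The intronic summit lay within 500 bp of the start, so it counts as a promoter summit too. Over all pooled summits both replicates matched 37.6%, and over all optimal summits 95.4%.

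The intronic pooled summit, matched in replicate 4 but not in replicate 2, had the full CREB3 family site CCACGTCA nearby. GAGAG, found in 39.9% of the optimal windows, also lay within 100 bp of this summit. The shares given above are for optimal windows, and this summit is in relaxed lists only. The CREB3 site began at base 231 from the start, 42 bp beyond the pooled summit, on the strand of the gene. It lay outside the 100 bp around the strong promoter summit. Its surroundings (chrX:11485470-11485497, plus strand, dm6) are shown with the site in capitals.
Spase25 intron: aagatgtgttCCACGTCAttgtagaatg

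Ordered by their strongest optimal promoter signal, Spase25 took place 106 of the 707 nuclear protein-coding genes with such a peak, whose median was 117.7. The gene next above it was Agpat3 (200.3), for an acyltransferase of phospholipid synthesis, and the gene next below was crc (199.2), which encodes the bZIP factor known as ATF4 in mammals. These neighbours share a signal level with Spase25 and were chosen by that alone.

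The catalytic subunit of the peptidase is encoded by twr (FBgn0262801, chr3R:6657882-6659442, plus strand), the homologue of yeast Sec11. It had no summit in the gene or within 2000 bp in any list. Its nearest pooled summit lay 8.54 kb downstream of the start with a signal of 19.7 (rank 20109). The nearest summit in replicate 4 was also 8.54 kb downstream (signal 15.1) and that in replicate 2 was 6.64 kb downstream (13.3). All of these are weak, and the nearest optimal summit was 155 kb away. Spase22-23 (FBgn0039172, chr3R:24228342-24230035, minus strand) is the homologue of yeast Spc3, which the enzyme needs for activity in yeast. The nearest pooled summit to its start was 23.8 kb downstream with a signal of 33.6. Its nearest optimal summit, 29.9 kb upstream, was stronger (188.2, rank 323) but lay far outside the window. Spase12 (FBgn0040623, chr3R:29490544-29491150, minus strand), the homologue of yeast Spc1, had its nearest pooled summit 13.9 kb downstream with a signal of 17.4.

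The 6 recognition particle and receptor genes had their nearest pooled summit 21.5 to 41.0 kb away, a range that overlaps that of the peptidase genes, from 22 bp to 23.8 kb. Srp54k (FBgn0010747, chr3L:5152678-5154777, plus strand) encodes the GTPase that binds the signal sequence, and its nearest pooled summit was 22.2 kb downstream with a signal of 49.8. The nearest optimal summit was 24.3 kb downstream (118.3). Srp19 (FBgn0015298, chr3L:7347310-7348034, minus strand) encodes a protein that binds the particle's RNA and helps the 54K protein to join. Its nearest pooled summit was 34.8 kb downstream with a signal of 16.4, close to the lowest listed. In replicate 2 a stronger summit (78.9, rank 898) lay 20.2 kb upstream. In replicate 4 the nearest was 35.6 kb downstream with a signal of 13.9, so the replicates differed there.

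Srp68 (FBgn0035947, chr3L:8975046-8977401, plus strand) and Srp72 (FBgn0038810, chr3R:20588711-20591040, plus strand) encode a pair of proteins that bind each other and the particle's RNA. The nearest pooled summit to Srp68 was 21.5 kb upstream, with a signal of 29.3. Srp14 (FBgn0038808, chr3R:20580115-20580764, plus strand) encodes a protein of the domain that slows translation, and it lies only 8.60 kb from Srp72. These neighbours shared their nearest pooled summit, 31.5 kb upstream of Srp14 and 40.1 kb upstream of Srp72, with a signal of 108.1 (rank 1174). They are thus 1 location rather than 2 independent ones. SrpRalpha (FBgn0010391, chrX:11126877-11129087, minus strand) encodes the receptor subunit that docks the particle. Its nearest pooled summit was 41.0 kb downstream with a signal of 22.0, the farthest among the 10 genes.

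Across all protein-coding genes the median distance from a start to the nearest pooled summit was 5.54 kb and the upper quartile 15.8 kb. The 10 genes had a median of 23.0 kb, and 14.8% of protein-coding genes lay farther away than that. With Srp14 and Srp72 counted as 1 location the median was 22.2 kb. The relaxed list of replicate 4 gave 20.4 kb for the 10 genes against 4.27 kb for all, and that of replicate 2 gave 20.9 kb against 3.90 kb. In the optimal list the difference was smaller, at 41.5 kb for the 10 genes and 32.7 kb for all. Among protein-coding genes no longer than Srp68 the pooled median was 5.87 kb. Within 10000 bp of the gene the pooled list gave a summit for 2 of the 10 genes, twr and Spase25, against 65.7% of protein-coding genes.

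**Figure D2:**
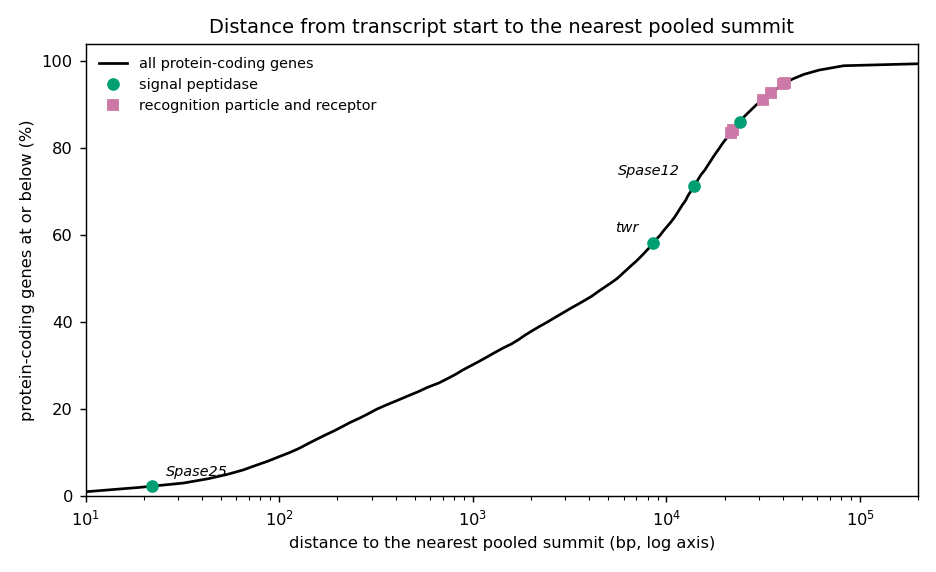
Percentage of protein-coding genes (vertical axis) whose nearest pooled summit lies at or within a given distance in bp (horizontal log axis), with the 4 signal peptidase genes as circles and the 6 recognition particle and receptor genes as squares. Spase25 stands at 22 bp, and the others lie from 8.54 to 41.0 kb, beyond the 5.54 kb median of all genes.

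Signal peptidase and recognition particle genes were set side by side by the stretch without a summit around each start, measured from the next summit upstream to the next downstream. In the pooled list this stretch was 53.8 kb at Spase22-23, 31.9 kb at Spase12, 24.7 kb at twr and 0.210 kb at Spase25, where both ends are summits of the gene itself. It was 75.4 kb at Srp19, 80.8 kb at Srp68, 81.0 kb at Srp54k, 83.5 kb at SrpRalpha and 95.5 kb for Srp14 and Srp72, which share it. The 2 sets did not overlap in the pooled list, and the median over all protein-coding genes was 28.1 kb. They did not overlap in replicate 2 either, where the peptidase genes reached 53.5 kb and the others began at 55.0 kb. In that list the median over all protein-coding genes was 21.9 kb, and 22.4% lay in a stretch of at least 55.0 kb. In replicate 4 the 2 sets did overlap, since Spase22-23 had 53.8 kb and the pair Srp14 and Srp72 had 53.3 kb. In the optimal list, which has far fewer peaks, the sets overlapped, at 9.65 to 379 kb for the peptidase genes and 126 to 634 kb for the others, against a median of 169 kb over all protein-coding genes. In the pooled list 18.6% of protein-coding genes lay in a stretch of at least 75.4 kb.

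The stretches around the recognition particle and receptor genes were not empty of genes. The pooled one around Srp19 held the 5′ ends of 22 protein-coding genes, that around Srp54k 14, that around Srp68 21, that around SrpRalpha 22 and the one shared by Srp14 and Srp72 22. The smaller stretches around twr, Spase12 and Spase22-23 held 5, 7 and 9. These counts include the members themselves, and the other genes counted lay in the same stretches without a summit. As 10 genes chosen by function are not replicates, the difference between the 2 sets was not tested. Signals of the 2 sets could not be compared, because no recognition particle or receptor gene had a summit in the gene or within 5000 bp.

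**Figure D3:**
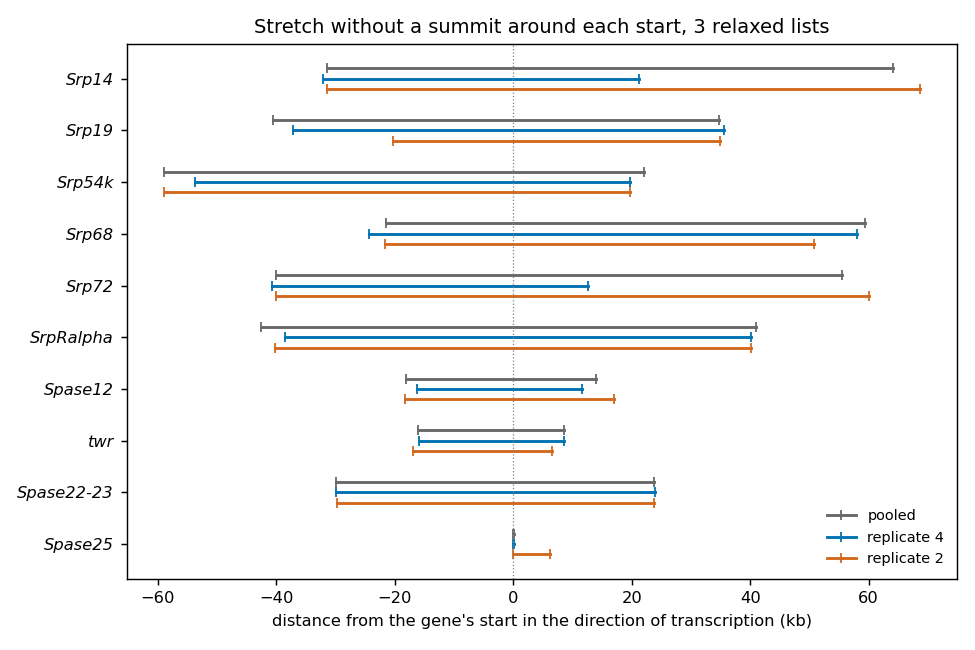
Stretch without a summit around the start of each gene, from the next summit upstream to the next downstream in kb along the direction of transcription, in the pooled list and both replicates. The recognition particle genes and SrpRalpha span 53.3 to 100 kb in the 3 lists, the signal peptidase genes other than Spase25 at most 53.8 kb, and at Spase25 a summit stands at the start itself.

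The promoters without peaks were searched for the same 7 sequences in windows from 250 bases before to 50 after the start. SrpRalpha held the full CREB3 family site CCACGTCA, at base 16 of the transcript on the opposite strand. Of 13968 promoters, 0.372% held this site. ACGTG was found in 5 of the 10 promoters, at Srp19, Srp54k, SrpRalpha, twr and Spase22-23, against 23.2% of all promoters. In all 5 the matches lay in the first 50 bases of the transcript, from base 2 at Srp19 to base 37 at Spase22-23. Of all promoters, 7.13% held ACGTG in those 50 bases. The choice to look at these bases alone was made after the positions were seen, and the share was not tested. Spase25, the gene with the peak, held none of the 7 sequences in this window.

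The other sequences were rarer among the members. GAGAG occurred at Srp68 and Spase12, against 29.7% of all promoters. TATCGATA occurred at Srp14 and SrpRalpha, against 9.36%. The E-box CACGTG occurred at Srp19, where it overlaps the ACGTG matches, against 4.20%. TGACGTCA occurred at none, against 0.437%.

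The 28 bases around the match nearest the start are shown for these 5 genes, because they hold the CREB3 family site or the core it shares and had no CrebA-eGFP peak nearby. All are given in the direction of the gene. Capitals mark the CREB3 site, read on the opposite strand, for SrpRalpha (chrX:11129055-11129082, minus strand) and ACGTG or its complement for Srp19 (chr3L:7348017-7348044, minus strand), Srp54k (chr3L:5152695-5152722, plus strand), twr (chr3R:6657902-6657929, plus strand) and Spase22-23 (chr3R:24229983-24230010, minus strand), all on dm6.
SrpRalpha: gctaggcaagTGACGTGGaacgtgtggc
Srp19: tcggccagctgCACGTgccatccctatt
Srp54k: tcttcttcttcCACGTcgacgtgtcgtg
twr: ggcctaaacatACGTGtcggaaattttc
Spase22-23: ctaacaacacgACGTGtcatttgccgga

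A match is only a run of letters. It says nothing of whether CrebA binds there, and the nearest relaxed summit to any of these 5 starts was 6.64 kb away.

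Direct partners of these proteins gave less uniform values. The particle's remaining listed protein gene, Srp9, whose product pairs with that of Srp14, had no optimal peak. In replicate 2 a summit stood 81 bp from its start with a signal of 57.0 (rank 1840), while the strongest promoter summit of replicate 4 had a signal of 11.5 (rank 19357) and the pooled list had none at the promoter. SrpRbeta, which encodes the membrane-bound subunit of the receptor, had a summit 2 bp from its start in replicate 2 with a signal of 109.2 (rank 397). Neither replicate 4 nor the pooled list had a summit within 500 bp of that start. An optimal peak (179.4) 1121 bp upstream of SrpRbeta lay close to the starts of CG32022 and CG6511. Both genes for the particle's RNA, 7SLRNA:CR32864 and 7SLRNA:CR42652, had no summit within 500 bp of the start in any list, and pooled signals of at most 33.3 within 2000 bp. Each of those pooled summits lay within 500 bp of the start of a transfer RNA gene for lysine.

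Over the listed 16 other genes of the route into the endoplasmic reticulum, 3 had an optimal promoter peak: Tapdelta, Sec61alpha and Trp1, the last a homologue of yeast Sec62. The share over all protein-coding genes was 5.14%, and the list was not tested against it. Each of the 3 had a promoter summit in both replicates. Spase25, with 199.5, fell between Sec61alpha (354.8) and Trp1 (171.3), and Tapdelta had 524.5. Of the 16 genes, 2 of which are RNA genes, 7 had no summit in the gene or within 2000 bp in any list, a share near the 46.1% of all protein-coding genes with none. Of the 10 genes described here, 9 had none, and the difference was not tested.

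**Figure D4:**
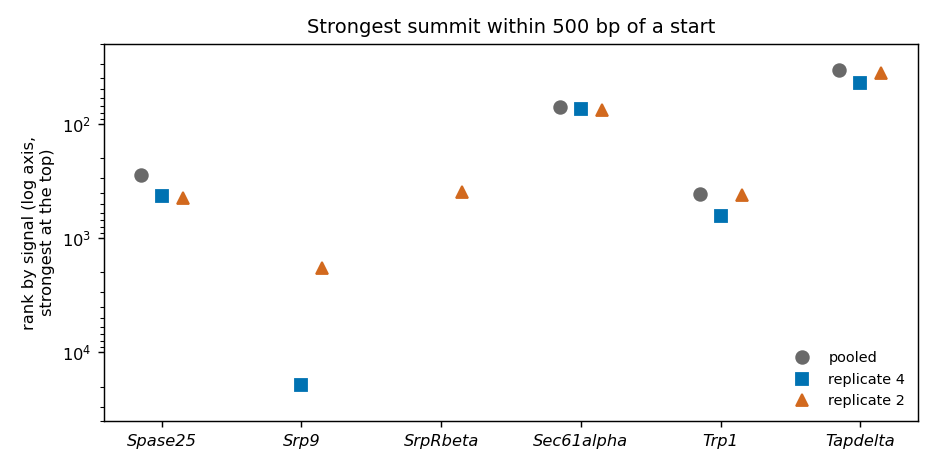
Rank by signal (log axis, strongest at the top) of the strongest summit within 500 bp of a start, in the pooled list and both replicates, for each member or listed partner with one. Spase25, Sec61alpha, Trp1 and Tapdelta have a mark from all 3 lists, whereas SrpRbeta has one from replicate 2 alone and Srp9 lacks a pooled one.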

How the data were processed

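The files are the narrowPeak lists that the authors deposited. Per the deposited notes, peaks with background were called for each replicate and for both replicates pooled, with a control, and peaks that passed the irreproducible discovery rate, a comparison of peak ranks between replicates, form the optimal list. Which aligner, peak caller and cutoff were used, and how duplicate reads were treated, is not given in the sources used here. The signal of each peak is the authors' deposited value. The deposited −log10 q-value has a ceiling (3.12 in the pooled list), and ranks follow signal for that reason. These lists hold no read counts, so depth is unknown and no interval is given.

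Genes and starts came from Ensembl release 115 (BDGP6.54), leaving out transposable elements and 5 protein-coding genes on unplaced sequence, and bases from the RefSeq Release 6 assembly (dm6 coordinates). The dm3 lists were not used. Summits were assigned with Python 3.11.15 and pandas 2.3.3, and the window functions were tested on simulated summits. Replicate summits within 200 bp counted as matched. The 10 genes, the 16 partners and the 7 sequences were chosen with earlier results of these data known. Named genes are the members, neighbours of Spase25 in the order of promoter signal, and the partners. Values of 1 other gene that the naming rule takes in are not reported here. No test was run, as there is 1 group and genes are not replicates. Alternatives changed the windows, the list, the starts and the matching distance, and left out each replicate.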

Additional observations from a re-analysis of the deposited data

How the results depend on the processing

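The count of members with a summit was 1 of 10, Spase25, in 24 of the 25 alternatives run on it: promoter windows of 250 and 1000 bp, gene 5′ ends only, flanks of 1000 and 5000 bp, the 1119 strongest optimal or 14999 strongest pooled peaks, each replicate alone, and, chosen after seeing the data, whole peak intervals and a flank of 10000 bp in the optimal list. With 10000 bp in the pooled list, also chosen after seeing the data, it was 2, since the wider window takes in the summit near twr. Each replicate list also gave 2 genes with 10000 bp, twr and Spase25, in counts outside the 25 alternatives. Leaving out a replicate gave the Spase25 promoter peak a signal from 75.9 to 105.0, against 199.5 in the pool, and the scaling of signal to depth is not stated. The median signal of signal peptidase against recognition particle genes could not be computed at 1000, 2000 or 5000 bp, since none of the latter had a summit. No paired analysis was possible because there is 1 group. A gene without a listed peak may hold signal below the lowest listed value.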
